A study of Homo sapiens with 12 samples.

Results

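The genes described here encode RNA polymerase II, the general factors that load it onto promoters, the Mediator complex and the Integrator complex. They were the human rows of the deposited count table whose symbols begin POLR2, GTF2A, GTF2B, GTF2E, GTF2F, GTF2H, TAF, MED or INTS followed by a subunit letter or number, which gave 92 of 60666 human genes. There were 12 polymerase subunits, 12 general factor subunits, 24 TAFs, 30 Mediator subunits and 14 Integrator subunits, and 91 passed the filter on low counts. MED12L did not pass, since its level ran from 0 to 0.0518 CPM, a count scaled to library size as explained below.

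RNA polymerase II transcribes messenger RNA genes. TFIID, made of the TATA-binding protein TBP and the TAFs, recognises the promoter, and TFIIA, TFIIB, TFIIF, TFIIE and TFIIH complete the initiation complex and open the DNA. Mediator relays signals from activators bound at enhancers to that complex. Integrator cleaves nascent RNA, dephosphorylates the polymerase through its phosphatase module and ends transcription soon after initiation at many genes. The mRNAs for all of this machinery are themselves made by the polymerase.

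The data were read counts of poly(A)-selected RNA from DLD-1, a line grown from a human colorectal adenocarcinoma, whose cells here constitutively expressed the plant receptor OsTIR1. SPT6-AID cells carried an auxin-inducible degron on SPT6, a histone chaperone that travels with elongating polymerase II, and PAF1-AID cells carried it on PAF1, of the elongation complex named after it. Each line had 2 libraries without auxin (0 h) and 2 after each of 2 and 6 h in 500 µM auxin, which sends the tagged protein to the proteasome, so there were 12 libraries in 6 groups of 2. Replicates were numbered 1 and 2 in SPT6-AID cells and 3 and 4 in PAF1-AID cells, and RNA was extracted from equal numbers of cells. The labels name no untagged cells treated with auxin, so a change from 0 h combines loss of the protein with any effect of auxin. They do not say whether the replicates were separate cultures, so p-values measure the spread between libraries and that spread may be technical. Nor do they say whether a line is 1 clone.

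Promoters of 71 of the 92 genes were found in the RefSeq table (GRCh38.p14). Up to 80 bases upstream of the RefSeq start, without any base in a GENCODE 29 exon of the gene, are shown for 5 genes that stand for the main patterns below: GTF2A1, which fell in both lines, TAF5, POLR2D and MED1, whose 6 h responses differed between the lines, and POLR2A, the largest polymerase subunit, which passed in neither. Capitals mark a GC box, a TATA box or an ETS core, the short elements bound by SP1-family factors, TBP and ETS-family factors, searched on both strands with the letters given below, and each sequence reads 5′ to 3′ on the gene's strand.
GTF2A1 (chr14:81221391-81221470, minus strand): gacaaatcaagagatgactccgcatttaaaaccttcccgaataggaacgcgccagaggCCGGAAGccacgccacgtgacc
TAF5 (chr10:103367896-103367966, plus strand): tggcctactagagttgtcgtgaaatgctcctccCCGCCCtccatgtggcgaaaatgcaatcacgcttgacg
POLR2D (chr2:127858158-127858235, minus strand): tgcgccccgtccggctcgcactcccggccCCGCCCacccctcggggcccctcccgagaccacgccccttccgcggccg
MED1 (chr17:39451287-39451343, minus strand): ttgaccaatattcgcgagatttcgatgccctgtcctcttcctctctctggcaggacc
POLR2A (chr17:7484286-7484365, plus strand): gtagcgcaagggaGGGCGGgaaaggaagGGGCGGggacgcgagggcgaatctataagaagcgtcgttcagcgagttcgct
The GTF2A1 window held an ETS core, the TAF5 and POLR2D windows a GC box on the other strand, the POLR2A window 2 GC boxes and the MED1 window none of the 3 motifs. Over 250 bases upstream to 50 downstream, the ETS core, searched as CCGGAAG, was present in 28 of 71 promoters (39.4%), against 10.7% of all 27305 promoters in the table and 17.8% of the 11697 that belonged to genes tested here. A TATA box, searched as TATAAA, was present in 4 of 71 (5.63%), against 11.95% of all promoters and 6.47% of those of tested genes. The GC box was searched as GGGCGG and was present in 43 of 71 (60.6%), against 44.6% of all promoters and 67.7% of those of tested genes. The ETS core was about as frequent among the 32 promoters of genes that fell at 6 h in SPT6-AID cells (12, 37.5%) as among the other 39 (16, 41.0%). A match of letters shows neither a bound factor nor a used site.

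Total counts per library ran from 31957953 to 115904780, and the 92 genes took between 0.494% and 0.613% of the human counts. The degron acts on protein, so the mRNAs of SUPT6H, which encodes SPT6, and PAF1 do not check depletion. SUPT6H was at 496 and 501 CPM at 0 h and 549 and 557 at 6 h in SPT6-AID cells, and PAF1 at 126 and 131 and 115.9 and 117 in PAF1-AID cells. The epithelial markers EPCAM, CDH1, KRT8, KRT18, KRT20 and CDX2 were expressed, while CDX1 was at 0 in every library and VIL1 and LGALS4 were below 0.61 CPM. Summed over all 9, epithelial markers ran from 4600 to 4801 CPM at 0 h and 5036 to 6056 at 6 h in SPT6-AID cells, and from 3215 to 4128 and 4613 to 4632 in PAF1-AID cells. Fibroblast markers (3 genes) summed to 1.40 to 2.25 CPM at 0 h and 1.187 to 1.195 at 6 h in SPT6-AID cells, and to 1.88 to 3.33 and 0.601 to 1.56 in PAF1-AID cells. Endothelial (2 genes) and leukocyte markers (3 genes) reached at most 1.22 and 1.56 CPM, both in SPT6-AID cells at 6 h, where at 0 h they were at most 0.0357 and 0.486 CPM. Mitochondrial genes took 2.39% and 2.45% of human counts at 0 h and 3.85% and 3.92% at 6 h in SPT6-AID cells, and 1.63% and 2.16% at 0 h and 3.16% and 2.22% at 6 h in PAF1-AID cells. The part of the markers and of the mitochondrial share in the results below was not tested. In PAF1-AID cells 84.0% of 443 chromosome 4 genes were higher in replicate 3 than in replicate 4 at all 3 times, POLR2B and MED28 among them but not INTS12, and the part of this in their values was not tested.

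At 0 h POLR2L, GTF2F1 and TAF15 had the highest levels per kilobase of transcript. CPM is a count per 1000000 of the human library size as scaled by edgeR's trimmed mean (TMM), and for comparing genes it was divided by the deposited transcript length in kilobases. POLR2L, a small subunit shared by polymerases I, II and III, was at 153 ± 19.3 CPM per kb in SPT6-AID cells and 133 ± 24.0 in PAF1-AID cells (SD, n = 2). It was followed by GTF2F1, the large subunit of TFIIF (82.3 ± 3.86 and 81.8 ± 13.4), and TAF15, an RNA-binding protein that associates with TFIID (62.4 ± 6.51 and 61.1 ± 0.878). POLR2A, which carries the catalytic centre and the C-terminal tail, was at 58.0 ± 7.65 and 43.5 ± 0.165. MED10 and MED16 led Mediator, at 23.7 and 19.8 CPM per kb in SPT6-AID cells, and INTS1 and INTS13 led Integrator, at 30.7 and 27.1. INTS1 and INTS13 did not separate, since the INTS13 libraries spanned the INTS1 mean. Apart from MED12L, the lowest were GTF2H4 (0.106), TAF7L (0.114), MED17 (0.434), and TAF1L and INTS6 (0.573 each). All GENCODE 29 exons of a gene together hold 16610 bases in MED17 and 25509 in INTS6, against 6216 in TAF1L. The deposited length is about that size, and a single mRNA can be shorter, so the low values of MED17 and INTS6 depend on it. None of the 91 genes differed between the lines at 0 h (edgeR adjusted p below 0.05), 5 had an unadjusted p below 0.05, DESeq2 also called 0, and 0.0337% of all genes tested passed, 0.0289% lower and 0.00481% higher in PAF1-AID cells.

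**Figure D1:**
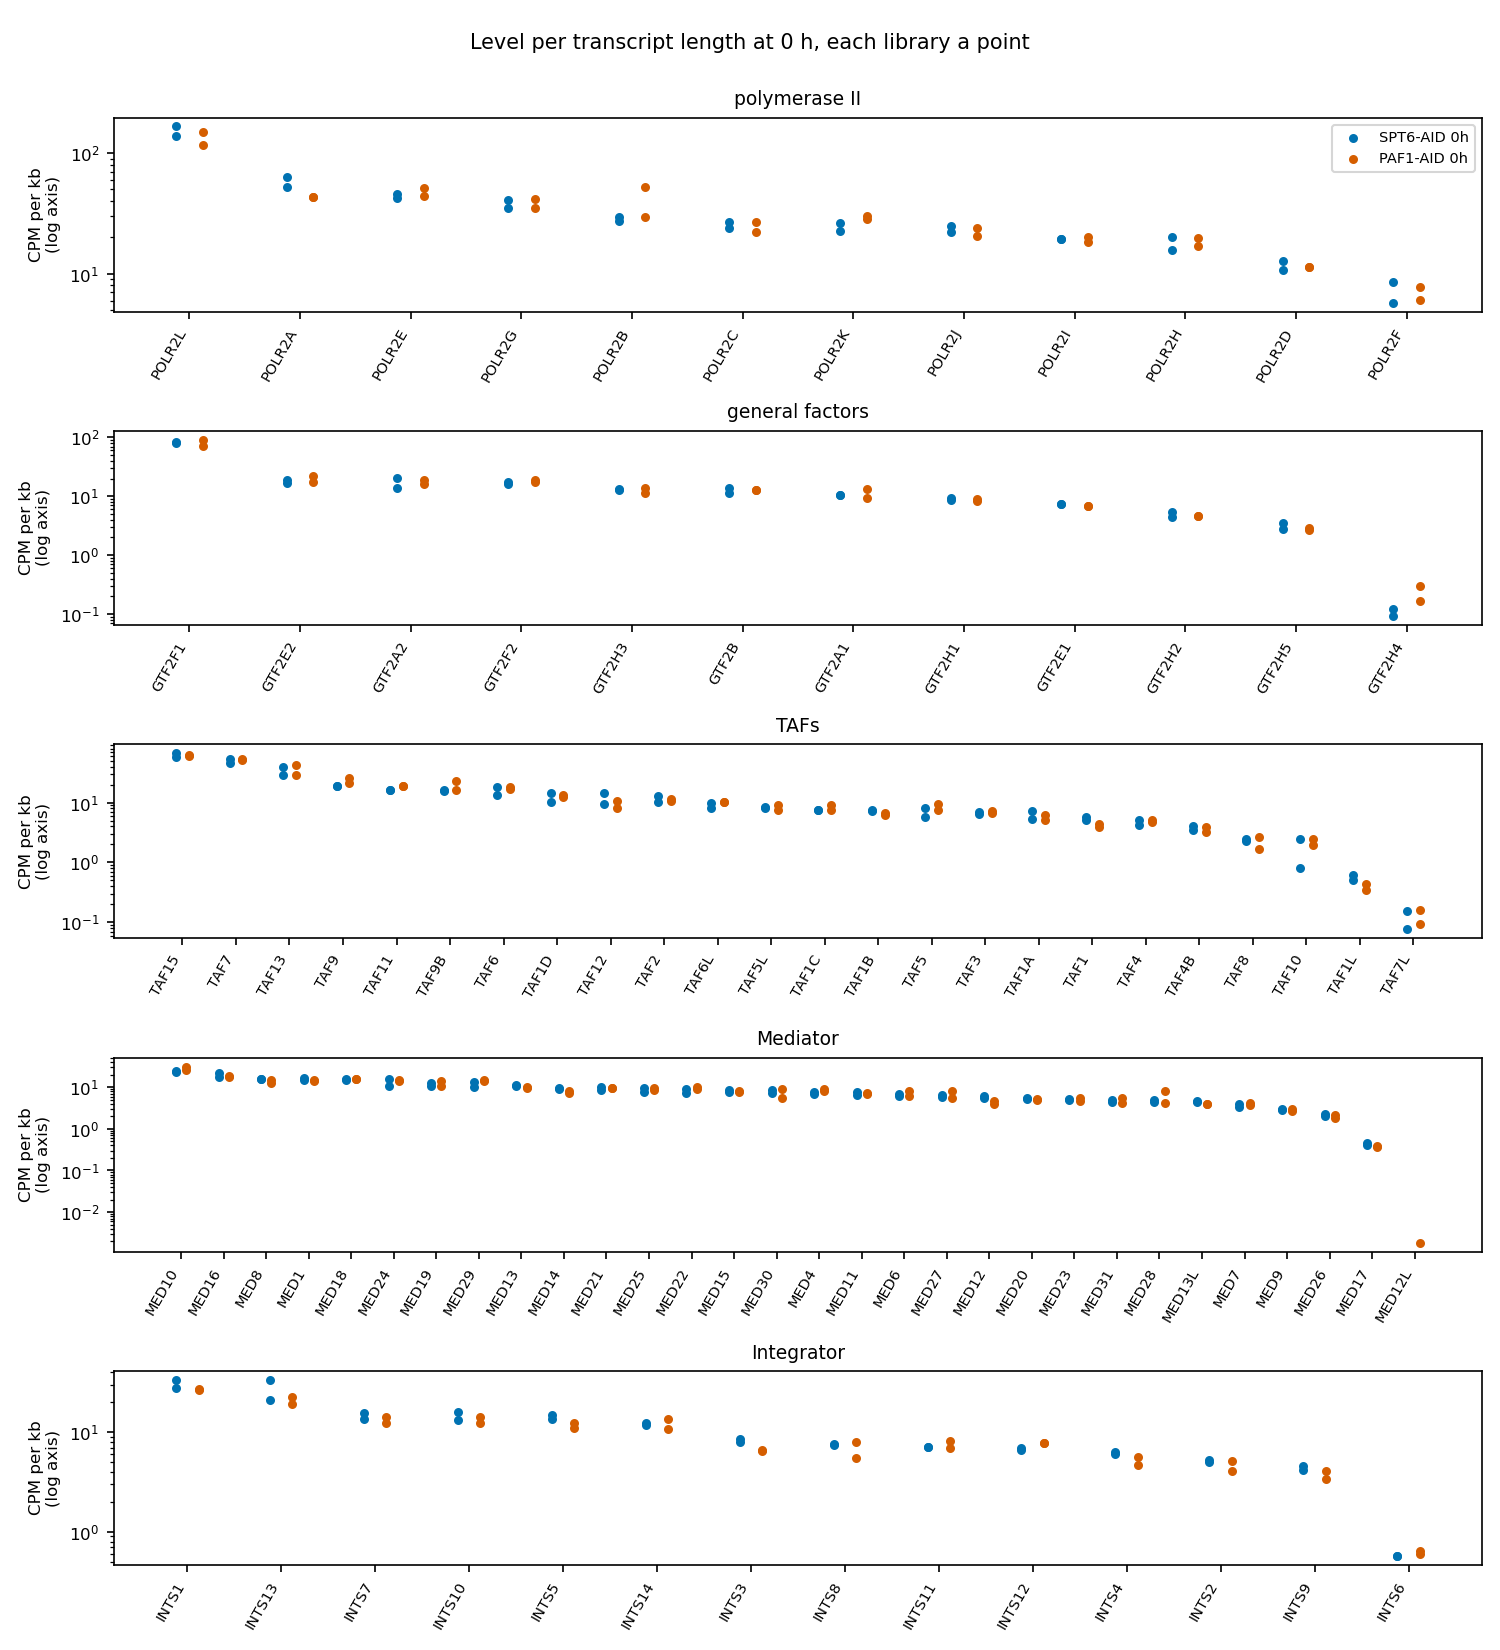
Level of each gene at 0 h in CPM per kilobase of transcript (logarithmic axis), 1 panel per complex, with each point 1 library (blue SPT6-AID, orange PAF1-AID) and genes ordered by their SPT6-AID mean. Points at 0, as for MED12L in 3 of its 4 libraries, are not drawn. POLR2L leads the polymerase subunits, and MED17 and INTS6, whose deposited lengths are long, are the lowest per kilobase of their complexes apart from MED12L.

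After 2 h of auxin no gene passed in SPT6-AID cells, against 0.548% of all 20791 genes tested, 0.462% lower and 0.0866% higher (edgeR adjusted p below 0.05, by the quasi-likelihood test with Benjamini-Hochberg adjustment over all genes). Of the 91, 13 had an unadjusted p below 0.05, all with log2 fold changes below 0, and DESeq2's Wald test called 7. The count was 1 without SPT6-AID 6h replicate 1 or 2. MED9, a subunit of the Mediator middle module, moved most. It was at 18.2 and 16.8 CPM at 0 h and 7.41 and 6.99 at 2 h (log2 fold change -1.28, SE 0.24, edgeR adjusted p = 0.0579), so its 2 h libraries lay below both at 0 h without passing. GTF2E1, TAF5, INTS6 and TAF1D followed with log2 fold changes of -0.86, -0.81, -0.79 and -0.77. The median over the 91 was -0.04, against 0.01 over all genes. With a term for replicate number in the fit, 13 of the 91 passed, all lower (14.3%, against 7.76% of all genes). The labels do not say what that number marks.

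In PAF1-AID cells 2 genes had fallen at 2 h, against 0.149% of all genes tested (0.0818% lower and 0.0673% higher). GTF2E1, the large subunit of TFIIE, which recruits TFIIH to the promoter (chromosome 3, 120742637 to 120783069, GRCh38 with GENCODE 29 coordinates here and below), was at 23.2 and 23.1 CPM at 0 h and 7.39 and 8.41 at 2 h (log2 fold change -1.55, SE 0.22, edgeR adjusted p = 0.0361). MED18, a subunit of the Mediator head, which contacts the polymerase (chromosome 1, 28329002 to 28335967), was at 31.2 and 31.5 CPM and then 17.1 and 13.1 (log2 fold change -1.05, SE 0.15, edgeR adjusted p = 0.0363). In both genes the 2 h libraries lay below the 0 h libraries, at 34.1% and 48.2% of their mean. That separation mostly follows from the genes having passed and is no separate support. INTS6 was at 48.1% of its 0 h level without passing (log2 fold change -1.05, SE 0.21, edgeR adjusted p = 0.0961). In SPT6-AID cells at 2 h GTF2E1 and MED18 were at 55.002% and 68.1% of 0 h, and the difference between the lines at 2 h did not pass for any of the 91 (3 with an unadjusted p below 0.05, 1 called by DESeq2, against 0.0337% of all genes, 0.0192% lower and 0.0144% higher). Both PAF1-AID calls were lost when that line was fitted alone and when library sizes were set by the counts of fly RNA that every library held. Leaving out 1 library ended both calls in 8 of 12 fits, those without replicate 1 or 2 of SPT6-AID 0h or 2h or replicate 3 or 4 of PAF1-AID 0h or 2h. Without PAF1-AID 6h replicate 3 or 4, 1 was left.

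By 6 h in SPT6-AID cells 40 of the 91 genes had changed, 43.96%, against 25.2% of all genes tested, and 39 of the 40 were lower (16.4% of all genes were lower and 8.76% higher). The median log2 fold change was -0.32 over the 91, against 0.04 over all genes. Those that fell stood at 18.3% to 71.9% of their 0 h level, and 21 of them at less than 50%. The 6 h libraries of all 39 lay below both 0 h libraries, which mostly follows from their having passed and is no separate support. The mitochondrial share of counts was higher in the same 6 h libraries, as given above. In bulk RNA fewer cells of a type and less RNA per cell cannot be told apart. Of the 40 calls, 28 were kept in all 18 alternatives, and 12 were lost in at least 1: INTS5, INTS14, MED4, MED10, MED13L, MED21, MED23, POLR2K, TAF1D, TAF3, TAF7 and TAF11. The values are CPM relative to a library's own human RNA. With library sizes set by fly counts, 54 of the 91 were lower and 0 higher at 6 h, against 5842 of 20791 genes lower and 958 higher. The median of all genes was then -0.39, and the median of the 91 lay 0.35 below that of all genes.

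Of 12 polymerase subunits 1 rose and 1 fell in SPT6-AID cells at 6 h, 16.7% against 25.2% of all genes, with a median log2 fold change of 0.27. POLR2A was at 439 and 529.7 CPM at 0 h and 378 and 459.8 at 6 h (log2 fold change -0.21, SE 0.18, edgeR adjusted p = 0.435), and the groups overlapped. POLR2D, which with POLR2G forms the stalk of the enzyme (chromosome 2, 127843551 to 127858157), was at 56.1 and 66.0 CPM at 0 h, 47.9 and 51.1 at 2 h and 28.6 and 26.3 at 6 h (log2 fold change -1.15, SE 0.12, edgeR adjusted p = 0.000210). Its libraries stepped down at each time without overlap. POLR2G, its partner, was at 66.7 and 77.5 CPM and 76.7 and 103 (log2 fold change 0.32, SE 0.17, edgeR adjusted p = 0.202). POLR2K, a small shared subunit, was at 37.6 and 43.9 CPM at 0 h and 50.3 and 68.0 at 6 h (log2 fold change 0.54, SE 0.16, edgeR adjusted p = 0.0342). POLR2B, the subunit that faces POLR2A across the cleft, was at 162 and 174 CPM and then 145 and 142 (log2 fold change -0.23, SE 0.33, edgeR adjusted p = 0.661), and in PAF1-AID cells its replicates differed more than its times did, at 307 and 173 CPM at 0 h and 294 and 163 at 6 h. With fly library sizes 3 of the 12 were lower and 0 higher, against 5842 of 20791 genes lower and 958 higher. The median of the 12 was then -0.18, which lay 0.21 above the median of all genes. POLR2K's log2 fold change was 0.08 with those sizes and did not pass, and POLR2A's was -0.66 (edgeR adjusted p = 0.00753) and passed as lower.

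Of 12 general factor subunits 5 fell and none rose, against 16.4% of all genes lower and 8.76% higher. GTF2A1, which encodes the large precursor of TFIIA that stabilises TBP on DNA (chromosome 14, 81175452 to 81221377), was at 72.6 and 72.8 CPM at 0 h and 35.2 and 25.2 at 6 h (log2 fold change -1.26, SE 0.19, edgeR adjusted p = 0.000998). Its partner GTF2A2 was at 44.4 and 66.3 and 45.7 and 73.8 CPM (log2 fold change 0.11, SE 0.26, edgeR adjusted p = 0.796). GTF2B, the single subunit of TFIIB, which bridges TBP and the polymerase (chromosome 1, 88852932 to 88891944), was at 28.96 and 34.7 CPM and then 13.5 and 15.1 (log2 fold change -1.16, SE 0.15, edgeR adjusted p = 0.000545). Both 6 h libraries of GTF2A1 and of GTF2B lay below all of their 0 h libraries, whereas those of GTF2A2 overlapped. GTF2E1 fell to 41.4% of 0 h (log2 fold change -1.27, SE 0.22, edgeR adjusted p = 0.00199), while the small TFIIE subunit GTF2E2 stood at 76.4% and did not pass (adjusted p 0.128). Neither TFIIF subunit passed. In TFIIH, which holds the helicase that opens promoters, GTF2H1 and GTF2H2 fell to 53.9% and 46.1%. GTF2H2 has near-identical copies that can share its reads, so its value is uncertain. GTF2H4 was at 0.214 and 0.280 CPM at 0 h and 0.609 and 0.419 at 6 h, and 79.0% of its exon bases lie in VARS2 on the same strand.

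TAFs fell in 12 of 24 cases, against 16.4% of all genes lower. TAF5, a WD-repeat scaffold subunit around which TFIID assembles (chromosome 10, 103367967 to 103389065), fell further than any other of the 91. It was at 26.5 and 18.5 CPM at 0 h, 14.4 and 11.3 at 2 h and 4.09 and 4.12 at 6 h (log2 fold change -2.45, SE 0.23, edgeR adjusted p = 0.000138). The libraries of the 3 times did not overlap. TAF8, which brings TAF10 into TFIID, fell to 35.4% of 0 h, from 23.1 and 21.1 CPM to 9.15 and 6.50 (log2 fold change -1.49, SE 0.25, edgeR adjusted p = 0.00188). TAF4, a core subunit bound by activators, and its paralogue TAF4B fell together, to 42.1% and 44.4%. TAF1, the largest subunit, fell from 54.6 and 61.7 to 38.4 and 33.0 CPM (log2 fold change -0.70, SE 0.13, edgeR adjusted p = 0.00279), and TAF3, TAF7 and TAF11 to between 69.8% and 71.8%. TAF13, which pairs with TAF11, was at 40.4 and 55.6 CPM and then 59.5 and 85.001 (log2 fold change 0.59, SE 0.26, edgeR adjusted p = 0.124), and TAF2, TAF6, TAF9, TAF9B, TAF10 and TAF12 did not pass.

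The SL1 TAFs serve polymerase I at ribosomal RNA genes, and 3 of 4 fell: TAF1A to 43.3%, TAF1B to 54.98% and TAF1D to 56.0% of 0 h. Over all genes 16.4% were lower. TAF1D hosts snoRNA genes. TAF1C was higher at 6 h in both libraries without passing (41.7 and 41.3 CPM against 58.3 and 50.8, log2 fold change 0.40, SE 0.13, edgeR adjusted p = 0.0530). Of the TAF paralogues in the SAGA coactivator, TAF6L fell to 51.8% and TAF5L stood at 85.3% (adjusted p 0.283). Of their TFIID counterparts TAF5 fell and TAF6 stood at 102% (adjusted p 0.935). The difference between paralogues was not tested.

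Mediator had 15 of 29 genes lower, with 6 of 9 head, 6 of 9 middle and 1 of 7 tail subunits lower, against 16.4% of all genes. The difference between the modules was not tested. In the head, MED17, the central subunit of that module (chromosome 11, 93784227 to 93814963), was at 6.80 and 7.61 CPM at 0 h and 2.4996 and 2.20 at 6 h (log2 fold change -1.61, SE 0.23, edgeR adjusted p = 0.000884). MED8, another head subunit (chromosome 1, 43383917 to 43389808), went from 42.8 and 42.7 to 14.8 and 16.4 CPM (log2 fold change -1.45, SE 0.17, edgeR adjusted p = 0.000297). MED20 and MED18, which form the movable jaw of the head, fell to 44.2% and 49.0%, and MED6 and MED22 to 54.6% and 44.8%. MED11, MED28 and MED30 did not pass.

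In the middle module MED1, the docking site of nuclear receptors (chromosome 17, 39404285 to 39451286), was at 140.3 and 131 CPM at 0 h and 70.8 and 50.2 at 6 h (log2 fold change -1.16, SE 0.16, edgeR adjusted p = 0.000606). MED9 fell to 34.7% of 0 h (log2 fold change -1.52, SE 0.25, edgeR adjusted p = 0.00163), about the level it had at 2 h (41.1%). MED7, MED10, MED4 and MED21 fell to 44.5%, 56.8%, 59.8% and 69.0%. MED26, which docks elongation factors, was not lower at 6 h. It was at 11.03 and 12.5 CPM at 0 h, 6.79 and 7.56 at 2 h and 15.9 and 15.6 at 6 h. The 2 h libraries of MED26 lay below those at 0 h without passing. Its 6 h libraries lay above those at 2 h (log2 fold change 1.13, SE 0.17, edgeR adjusted p = 0.00238), and above those at 0 h without passing (adjusted p 0.0915). Genes on the same strand share 41.9% of MED26's exon bases, so part of its reads may be theirs.

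MED14, the scaffold that joins head, middle and tail, was at 94.8 and 86.6 CPM and then 83.2 and 70.3 (log2 fold change -0.24, SE 0.14, edgeR adjusted p = 0.246). In the tail, which activators contact, MED23 fell to 71.9%, and MED15, MED16, MED24, MED25, MED27 and MED29 did not pass. In the kinase module, which docks on Mediator and regulates its contact with the polymerase, MED13 (chromosome 17, 61942605 to 62065282) went from 136 and 140.1 CPM at 0 h to 100.5 and 97.7 at 2 h and 56.1 and 34.2 at 6 h (log2 fold change -1.61, SE 0.19, edgeR adjusted p = 0.000361). Its libraries stepped down at each time. Its paralogue MED13L fell to 52.1% with unequal 6 h libraries (99.8 and 54.8 CPM, against 150.4 and 146 at 0 h). MED12 stood at 93.5% and did not pass (adjusted p 0.698).

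Integrator had 6 of 14 subunits lower and none higher, against 16.4% of all genes lower and 8.76% higher, with a median of -0.37. With fly library sizes 11 of the 14 were lower, against 5842 of 20791 genes. INTS6, of the phosphatase module (chromosome 13, 51354077 to 51454264), was at 14.7 and 14.5 CPM at 0 h, 8.44 and 8.51 at 2 h and 5.13 and 4.16 at 6 h (log2 fold change -1.65, SE 0.21, edgeR adjusted p = 0.000505), and no libraries of different times overlapped. INTS8, its partner in that module, was at 59.9 and 58.0 and 53.3 and 56.8 CPM (log2 fold change -0.10, SE 0.22, edgeR adjusted p = 0.781). In the core INTS2, INTS5, INTS7 and INTS12 fell to 52.6%, 64.3%, 54.1% and 48.9% of 0 h, while INTS1, the largest core subunit, was at 304 and 253 CPM and then 354 and 313 (adjusted p 0.196). None of the cleavage module, INTS4, INTS9 and the endonuclease INTS11, passed. INTS11 was at 58.8 and 57.7 CPM at 0 h and 58.5 and 56.9 at 6 h, which overlapped (log2 fold change -0.01, SE 0.12, edgeR adjusted p = 0.945), and its sign turned positive under DESeq2's size factors. In the arm, INTS14 fell to 69.5%.

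**Figure D2:**
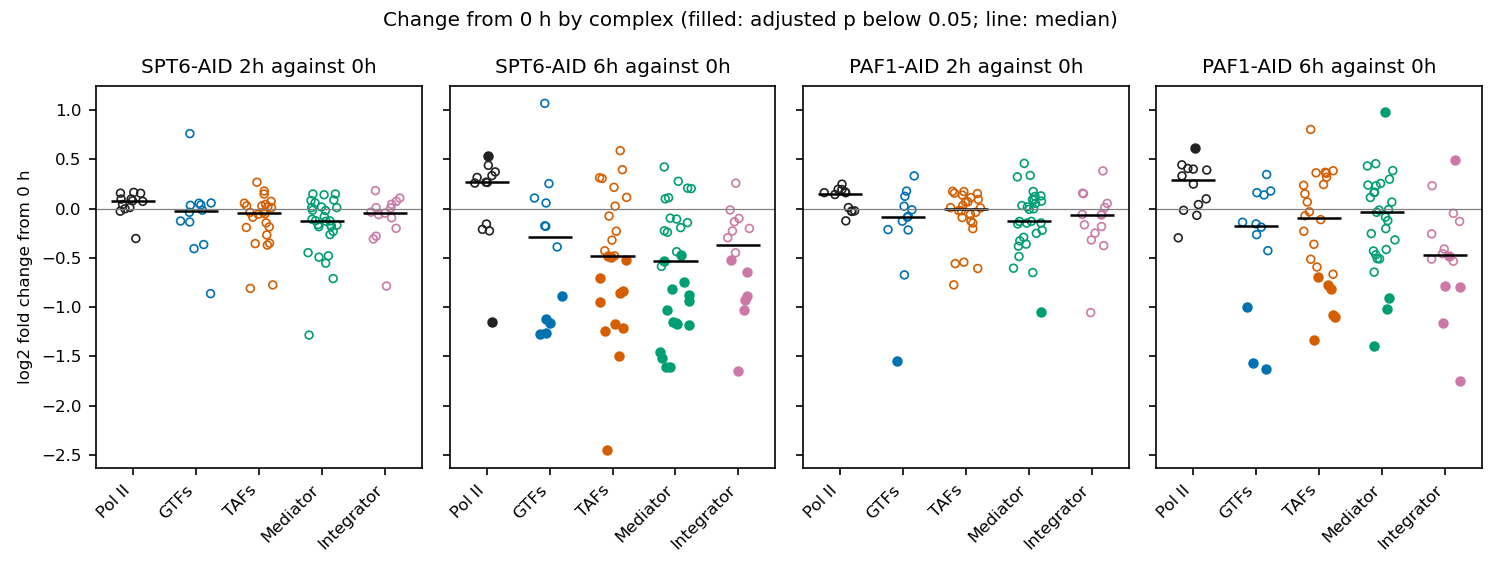
Log2 fold change from 0 h of the 91 genes tested, 1 panel per line and time and 1 column per complex (GTFs: general factors). Filled points passed at an edgeR adjusted p below 0.05, open points did not, and the black bar is the median of the complex. The 39 falls in SPT6-AID cells at 6 h spread over all 5 complexes, with 1 in the polymerase itself.

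In PAF1-AID cells at 6 h 20 of the 91 genes had changed, 21.98%, against 10.9% of all genes tested. Of these 17 were lower (6.7% of all genes) and 3 higher (4.2%), and the median of the 91 was -0.09, against 0.02 over all genes. The genes that fell stood at 29.7% to 71.5% of 0 h, 9 of them at less than 50%. Both 6 h libraries of each lay below both at 0 h, which mostly follows from their having passed. Without PAF1-AID 6h replicate 3 the fit called 8 genes, and without PAF1-AID 0h replicate 3 it called 13. With fly library sizes 32 were lower and 0 higher, against 2865 of 20791 genes lower and 296 higher. The median of all genes was then -0.37. Of the 20 calls 7 were kept in all 18 alternatives: GTF2A1, GTF2E1, INTS2, INTS6, MED18, TAF1 and TAF6L.

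The 3 genes that rose belong to different complexes, and none of the 3 passed with fly library sizes. MED26 was at 9.90 and 11.8 CPM at 0 h, 13.9 and 15.9 at 2 h and 19.99 and 22.7 at 6 h (log2 fold change 0.98, SE 0.17, edgeR adjusted p = 0.00606), each time above the last. POLR2C, a polymerase assembly subunit that pairs with POLR2J, was at 80.8 and 99.0 CPM and 139 and 137 (log2 fold change 0.62, SE 0.14, edgeR adjusted p = 0.0202). INTS1 was at 239.9 and 244 CPM and 344 and 337 (log2 fold change 0.49, SE 0.13, edgeR adjusted p = 0.0419), and its call was also lost in 8 of the fits that left out a library.

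The counts by complex that follow stand against 6.7% of all genes lower. Among the general factors 3 of 12 fell, GTF2A1, GTF2E1 and GTF2H2. GTF2A1 went from 90.6 and 65.0 CPM at 0 h to 51.9 and 45.7 at 2 h and 25.1 and 25.1 at 6 h (log2 fold change -1.63, SE 0.19, edgeR adjusted p = 0.00178). Its groups did not overlap, and GTF2A2 stood at 113% of 0 h (adjusted p 0.724). GTF2E1, already low at 2 h, was at 6.29 and 9.35 CPM at 6 h (log2 fold change -1.57, SE 0.22, edgeR adjusted p = 0.00279). Of the TAFs 6 of 24 fell: TAF8 to 39.6%, TAF1A to 46.5%, TAF6L to 47.5%, TAF1D to 56.9%, TAF1 to 58.4% and TAF4B to 61.9%. TAF1L, an intronless copy of TAF1 that can share its reads, was at 70.03% without passing (adjusted p 0.188).

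Mediator had 3 of 29 lower, 10.3%, which is near the 6.7% over all genes. MED18 was at 11.9 and 11.96 CPM at 6 h against 31.2 and 31.5 at 0 h (log2 fold change -1.40, SE 0.15, edgeR adjusted p = 0.00176), and MED20 and MED7 stood at 49.2% and 53.5% of 0 h. Integrator had 5 of 14 lower. INTS6 went from 15.3 and 16.4 CPM to 6.57 and 8.68 at 2 h and 4.01 and 5.41 at 6 h (log2 fold change -1.75, SE 0.21, edgeR adjusted p = 0.00191), with 6 h libraries below all others in that line. INTS2, INTS7 and INTS14 stood at 44.8%, 57.7% and 58.2%. INTS3, which joins Integrator to a single-stranded DNA-binding complex, was at 69.7 and 67.9 CPM and then 47.5 and 50.8 (log2 fold change -0.48, SE 0.10, edgeR adjusted p = 0.0163). No polymerase subunit passed as lower in the main fit. With fly library sizes 1 of 12 polymerase subunits and 11 of 14 Integrator subunits were lower, against 2865 of 20791 genes. POLR2A was at 362 and 364 CPM at 0 h and 538 and 422 at 6 h (log2 fold change 0.40, SE 0.18, edgeR adjusted p = 0.189).

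The lists of falls overlapped at 6 h: 16 genes were in both, 41.0% of the 39 in SPT6-AID cells and 94.1% of the 17 in PAF1-AID cells. Over all genes tested 1038 were lower in both, 30.4% of 3409 and 74.5% of 1394, and whether the 16 stand apart from that was not tested. The exception in PAF1-AID cells was INTS3, at 85.5% in SPT6-AID cells (adjusted p 0.147). The shared genes were GTF2A1, GTF2E1 and GTF2H2 of the general factors, TAF1, TAF1A, TAF1D, TAF4B, TAF6L and TAF8, MED7, MED18 and MED20, and INTS2, INTS6, INTS7 and INTS14. The lines' comparisons share no libraries. None of the 16 passed the test of the difference between the lines, which does not show that their responses were alike. For INTS6 that difference was 0.10 (SE 0.29) and for GTF2E1 0.30 (SE 0.30) on the log2 scale. TAF4B's log2 fold changes were -1.17 in SPT6-AID cells and -0.69 in PAF1-AID cells.

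**Figure D3:**
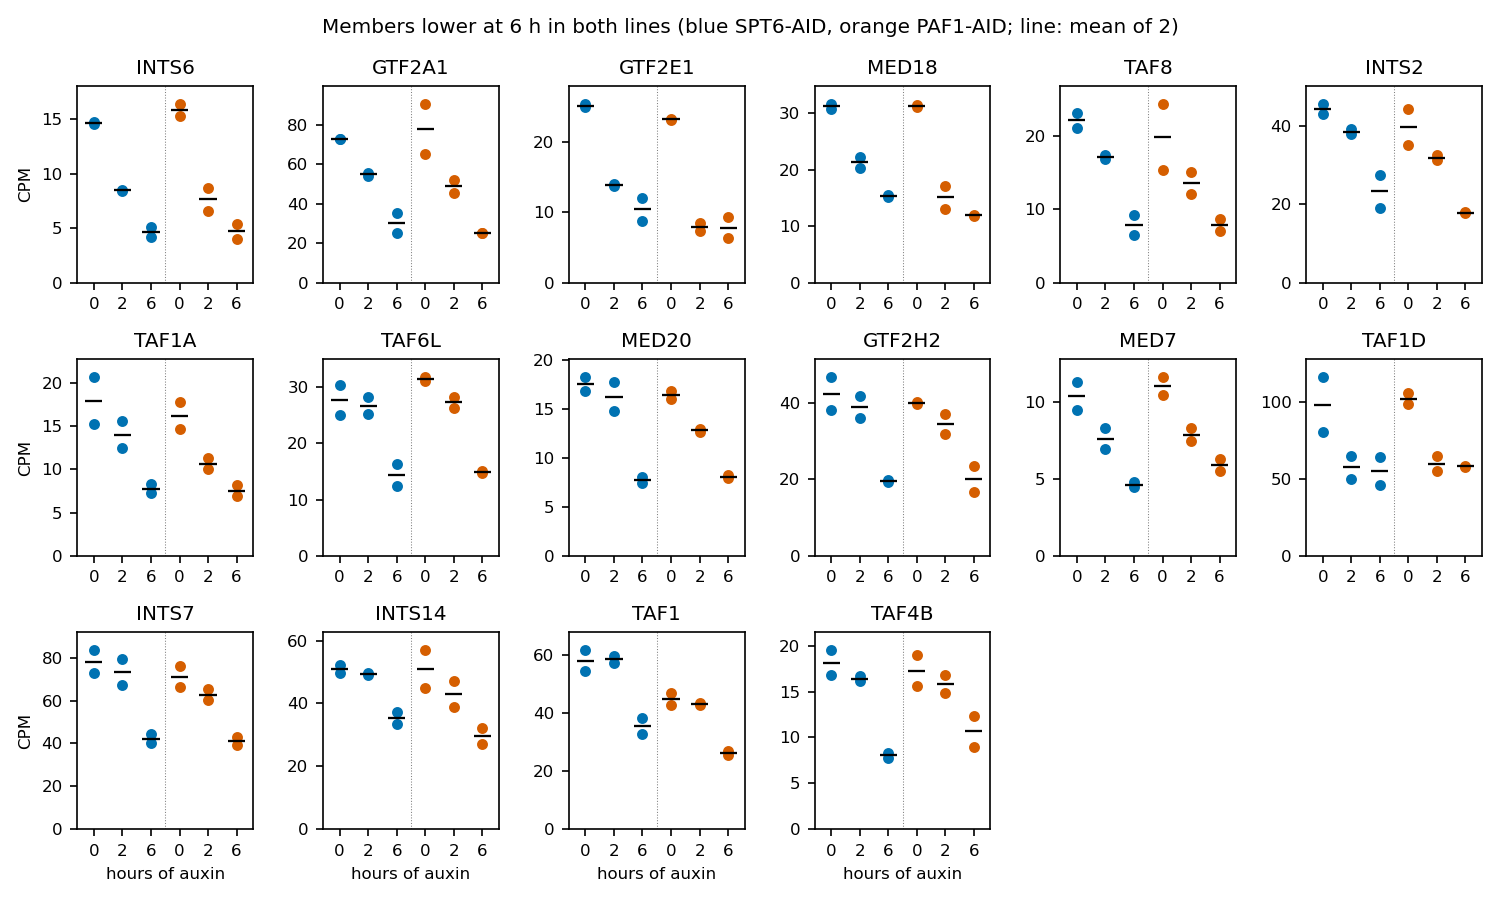
CPM in each library (points) and group mean (bar) at 0, 2 and 6 h of auxin for the 16 genes lower at 6 h in both lines, blue SPT6-AID and orange PAF1-AID, each panel with its own axis from 0. In every panel both 6 h libraries lie below both 0 h libraries of their line, which mostly follows from the choice of genes that passed.

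The 6 h response differed between the lines for 10 of the 91 genes, against 3.74% of all genes tested (3.12% lower and 0.62% higher), and in all 10 the SPT6-AID response was the lower one. They were GTF2B, GTF2H1, INTS12, MED1, MED8, MED13, POLR2D, TAF5, TAF7 and TAF11, and each had fallen in SPT6-AID cells and not passed in PAF1-AID cells. In PAF1-AID cells GTF2B was at 32.1 and 32.3 CPM at 0 h and 37.0 and 35.02 at 6 h, so the lines' responses differed by -1.32 (SE 0.21, edgeR adjusted p = 0.0148). MED1 was at 124 and 127 CPM and then 140.5 and 159 (difference -1.42, SE 0.22, edgeR adjusted p = 0.0135). Both genes were higher in each 6 h library of PAF1-AID cells than in any at 0 h, without passing there, although with fly library sizes both log2 fold changes there lay below 0, that of GTF2B at -0.23.

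In PAF1-AID cells POLR2D was at 59.9 and 59.7 CPM at 0 h, 58.4 and 59.3 at 2 h and 57.7 and 60.5 at 6 h (difference -1.14, SE 0.17, edgeR adjusted p = 0.0131). TAF5 went from 24.3 and 30.3 CPM to 16.6 and 19.6 in PAF1-AID cells (log2 fold change -0.59, SE 0.22, edgeR adjusted p = 0.113). Its difference between the lines had the greatest size of the 10, at -1.86 (SE 0.31, edgeR adjusted p = 0.0159). For MED13, MED8, TAF11, INTS12, GTF2H1 and TAF7 the differences were -1.36, -0.98, -0.84, -0.78, -0.75 and -0.64. INTS12 lies on chromosome 4, but its PAF1-AID libraries were alike (30.4 and 30.7 CPM at 0 h, 26.4 and 24.8 at 6 h).

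None of the 10 differences passed in every alternative. MED1 and POLR2D lost the call in 4 of 17, TAF5 in 5, GTF2B in 6 and MED13 in 7, and the other 5 in 13 to 15. The count was 0 with fly library sizes, 0 without PAF1-AID 0h replicate 3 or PAF1-AID 6h replicate 4, 1 without SPT6-AID 0h replicate 2, and 3 to 5 without any of 8 other libraries; without SPT6-AID 6h replicate 1 it was 14. All 10 kept their sign under each of the 17, which mostly follows from their having passed in the same libraries and is no separate support. Of 23 genes that were called lower in SPT6-AID cells and not in PAF1-AID cells, the other 13 did not pass this test: INTS5, MED4, MED6, MED9, MED10, MED13L, MED17, MED21, MED22, MED23, TAF1B, TAF3 and TAF4.

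**Figure D4:**
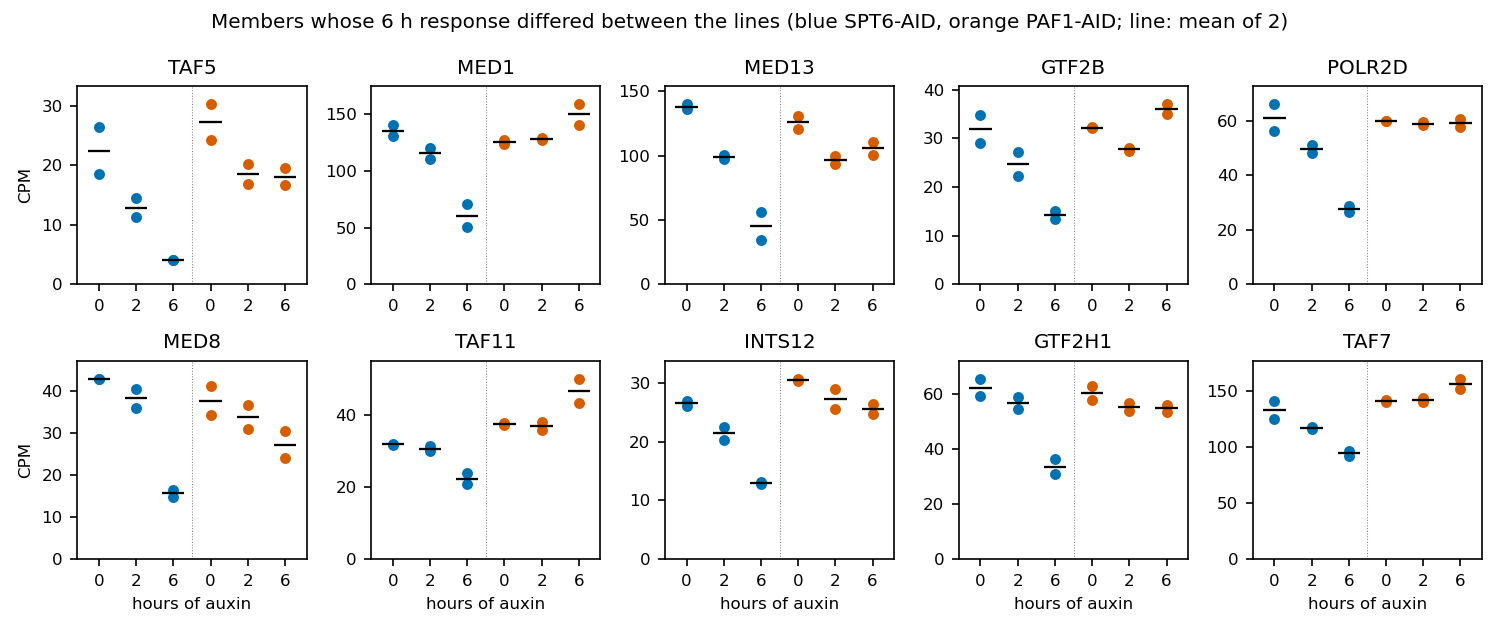
CPM in each library (points) and group mean (bar) at 0, 2 and 6 h of auxin for the 10 genes whose 6 h response differed between the lines, blue SPT6-AID and orange PAF1-AID, each panel with its own axis from 0. The SPT6-AID 6 h points lie below the PAF1-AID 6 h points in every panel, which mostly follows from the choice of genes that passed.

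**Figure D5:**
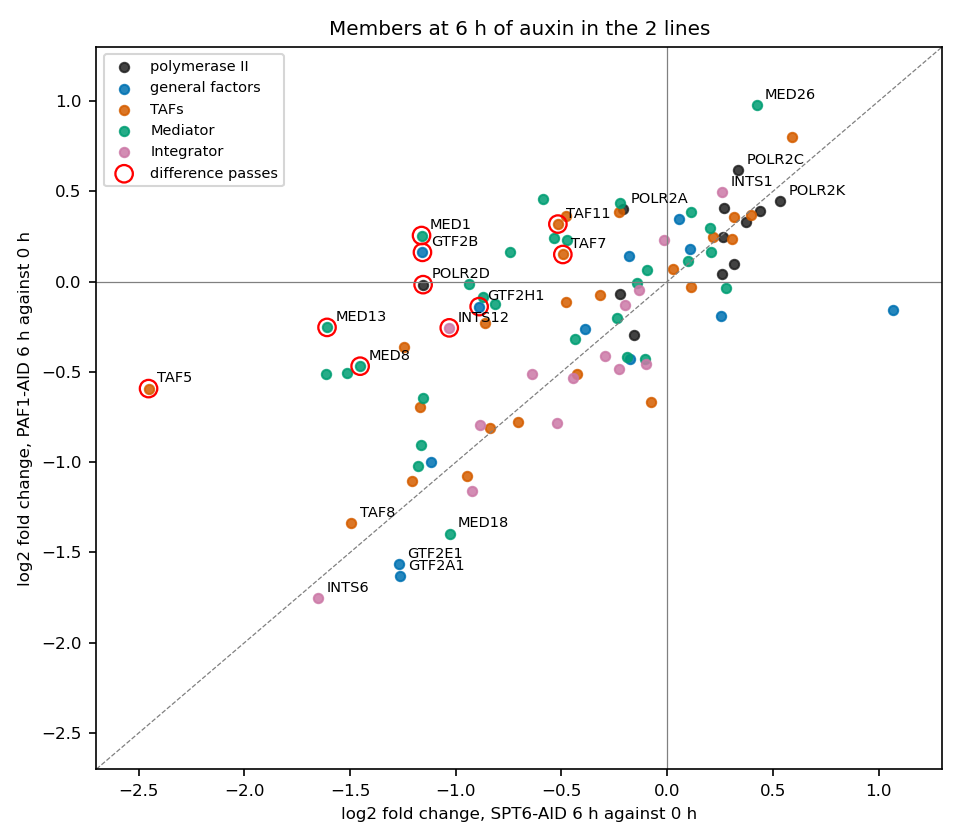
Log2 fold change at 6 h against 0 h in SPT6-AID cells (horizontal) and PAF1-AID cells (vertical) for the 91 genes, coloured by complex, with the dashed line marking equal change. Red circles mark the 10 genes that passed the test of the difference, all with the SPT6-AID response the lower one and so above the dashed line. INTS6, GTF2A1 and GTF2E1 lie low on both axes.

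Between 2 and 6 h, 30 of the 91 genes changed in SPT6-AID cells, against 15.7% of all genes tested (10.4% lower and 5.32% higher), with 29 lower and MED26 higher. The log2 fold changes of TAF5, MED8 and MED13 were the lowest in that interval, at -1.64, -1.29 and -1.13. The count was 18 without SPT6-AID 2h replicate 1, 12 without SPT6-AID 2h replicate 2 and 13 without SPT6-AID 6h replicate 2. In PAF1-AID cells 3 changed, all lower, against 0.875% of all genes (0.587% lower and 0.289% higher), with log2 fold changes for GTF2A1 at -0.96 (SE 0.19), TAF6L at -0.87 (SE 0.17) and TAF1 at -0.72 (SE 0.13). GTF2E1 was not among them in either line, and its log2 fold changes over that interval were -0.41 and -0.01. The 3 PAF1-AID calls were lost in 10 of the 12 fits that left out a library, all but those without SPT6-AID 6h replicate 1 or 2. The 6 h and 2 h comparisons share libraries and are not independent.

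Another 29 genes of the same machinery were listed by function, with earlier results of these data known. Of these 12 fell and none rose in SPT6-AID cells at 6 h (41.4%, against 16.4% of all genes lower and 8.76% higher). TBP, which binds the TATA box and nucleates TFIID, was at 20.1 and 23.1 CPM at 0 h and 10.3 and 6.64 at 6 h (log2 fold change -1.35, SE 0.23, edgeR adjusted p = 0.00213). CDK7, the TFIIH kinase, fell to 42.8% of 0 h, CDK8, the Mediator kinase, to 50.04%, and CTDP1, a phosphatase of the polymerase tail, to 35.5%. C7orf26, the Integrator arm subunit also called INTS15, went from 31.7 and 29.8 CPM to 13.6 and 11.7 (log2 fold change -1.28, SE 0.15, edgeR adjusted p = 0.000303) and was at 31.5 and 34.4 CPM at 6 h in PAF1-AID cells against 29.2 and 31.4 at 0 h. Its response differed between the lines by -1.40 (SE 0.21, edgeR adjusted p = 0.0128). BTAF1 and DR1, which limit TBP, and INIP, NABP1, PPP2CA, POLR2M and RPAP3 also fell, to between 45.2% and 78.5%. In PAF1-AID cells NABP1, an Integrator-associated DNA-binding protein, had fallen at 2 h (58.1 and 46.9 CPM at 0 h, 23.8 and 24.0 at 2 h, log2 fold change -1.13, SE 0.15, edgeR adjusted p = 0.0358), and NABP1, INIP and CDK8 were lower at 6 h, 3 of 29 or 10.3%, near the 6.7% of all genes that were lower.

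The falls in SPT6-AID cells at 6 h were spread unevenly over gene length. Length here is the deposited span of a gene, and a single transcript can span less, so the class of some genes depends on it. They covered 5 of 23 genes under 10 kb, 8 of 20 from 10 to 30 kb, 18 of 34 from 30 to 100 kb and 8 of 14 of 100 kb or more. Over all genes tested the shares lower in those classes were 7.73%, 17.2%, 24.3% and 25.3%. The Spearman correlation between log2 fold change and gene length was -0.35 across the 91 genes and -0.23 across all genes, which share libraries and are not independent replicates. The POLR2 genes that did not fall include many short ones, such as POLR2I (chromosome 19, 36113710 to 36115346), whereas MED13L (chromosome 12, 115953872 to 116277719) is among the longest. Other genes went the other way. MED8, INTS5, MED10 and MED18, of 5892 to 6964 bases, fell, and MED27 and GTF2F2, of 226940 and 164384 bases, did not. In PAF1-AID cells at 6 h that correlation was -0.18 across the 91 genes and -0.09 across all genes. The falls there covered 1 of 23, 3 of 20, 10 of 34 and 3 of 14 genes in the same classes of length, against 3.98%, 8.17%, 9.63% and 6.77% of all genes. With expression level, the correlation at 6 h in SPT6-AID cells was 0.31 across the 91 and -0.32 across all genes. In PAF1-AID cells it was 0.47 and -0.02. The part of length or level in the falls was not tested.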

How the data were processed

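Poly(A) RNA was measured in 12 libraries, and the authors deposited raw read counts per gene in 1 table with 60666 human and 17807 fly rows. The tools named are cutadapt 1.14, STAR 2.7.5 and featureCounts 2.0.0, and the genomes GRCh38 and BDGP6 (fly), per the submitters' processing notes. The strand setting, the annotation release and the amount of fly material are not given in the sources used here. Reads of overlapping or near-identical genes may therefore be shared. Total counts per library were 31957953 to 115904780, of which fly counts were 3.94% to 6.25%.

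Human counts were filtered with filterByExpr, scaled by TMM and tested with edgeR 4.0.16 (R 4.3.3) by its quasi-likelihood test. The fit had 6 group means and 6 residual degrees of freedom over 20791 genes, with Benjamini-Hochberg adjustment over all of them and a threshold of 0.05. Each SE was derived from the F statistic and the fitted change. Alternatives were DESeq2 1.42.0 (size factors, and its Wald test), fly totals as library sizes, no filter, fits within 1 line, a block for replicate number, and leaving out each library. Coordinates are from GENCODE 29 (GRCh38), in which all 92 genes were found, and promoters from RefSeq (GRCh38.p14).

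Genes were named where they passed against 0 h, differed between the lines, had the highest or lowest change of their module, or belonged to a paralogue pair, with POLR2A, GTF2B, TAF1, MED14 and INTS11 named whatever their values. Other genes were named after their values were seen. The genes, lists and tests were chosen with earlier results of these data known.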

Additional observations from a re-analysis of the deposited data

Results flagged for a closer look

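The response to 6 h of auxin differed between SPT6-AID and PAF1-AID cells by the test of the difference itself (edgeR's quasi-likelihood test, adjusted p below 0.05) for 10 genes. The differences, SPT6-AID minus PAF1-AID on the log2 scale, were -1.86 for TAF5, -1.42 for MED1, -1.36 for MED13, -1.32 for GTF2B, -1.14 for POLR2D, -0.98 for MED8, -0.84 for TAF11, -0.78 for INTS12, -0.75 for GTF2H1 and -0.64 for TAF7. Their adjusted p-values ran from 0.0131 for POLR2D to 0.0499 for INTS12.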

How the results depend on the processing

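The labels do not say what a replicate number marks, and same-numbered libraries deviated together (r = 0.491 to 0.660 across genes between times of a line), a hint from 2 pairs only. With the replicate block, the genes changed numbered 13 (SPT6-AID) and 15 (PAF1-AID) at 2 h against 0 h, 65 and 58 at 6 h against 0 h, 57 and 37 at 6 h against 2 h, and 1 and 30 for the difference between the lines at 2 and 6 h. With fly totals the counts were 0 for PAF1-AID at 2 h, 32 for PAF1-AID at 6 h, 0 for PAF1-AID 6 h against 2 h and 0 for the difference at 6 h. Without the filter they were 3 and 5 at 2 h in SPT6-AID and PAF1-AID cells and 7 for PAF1-AID 6 h against 2 h. DESeq2's Wald test called 7 in SPT6-AID cells at 2 h, 9 for PAF1-AID 6 h against 2 h and 1 for the difference at 2 h, and DESeq2's size factors left 6 for the difference at 6 h. PAF1-AID cells fitted alone gave 0 at 2 h and 1 for 6 h against 2 h.

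Leaving out 1 library at a time gave 0 to 1 genes in SPT6-AID cells and 0 to 2 in PAF1-AID cells at 2 h, 30 to 41 and 8 to 20 at 6 h, 12 to 30 and 0 to 4 for 6 h against 2 h, and 0 to 14 for the difference at 6 h. It gave 0 for the difference at 2 h and 0 for the lines at 0 h each time.

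Values not passing the test changed sign as follows. With fly totals the log2 fold change was -0.056 for INTS11, -0.12 for TAF1 and -0.033 for MED14 in SPT6-AID cells at 2 h. The PAF1-AID values were -0.086 for INTS11, -0.14 for MED14 and -0.031 for POLR2A at 2 h, and -0.17 for INTS11 and -0.23 for GTF2B at 6 h. INTS11 in SPT6-AID cells at 6 h was 0.0392 with DESeq2's size factors, 0.0394 with its Wald test and 0.0046 with the line alone. Leaving out 1 library, the log2 fold change in SPT6-AID cells ranged from -0.074 to 0.10 for TAF1, -0.049 to 0.22 for MED14 and -0.24 to 0.16 for POLR2A at 2 h, and from -0.027 to 0.0197 for INTS11 at 6 h. For PAF1-AID at 2 h the range was -0.12 to 0.0094 for TAF1 and from -0.015 to 0.17 for MED14.

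Over all genes tested, counts moved most with the block (1613 in place of 114 in SPT6-AID cells and 1452 in place of 31 in PAF1-AID cells at 2 h, 10683 in place of 5230 and 7958 in place of 2267 at 6 h) and, for the difference at 6 h, with fly totals (16 in place of 778). The causes were not tested. Depth limits MED12L, GTF2H4 and TAF7L, whose counts were low in every library.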

Other observations

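Replicates of a line differed steadily for some genes, a pattern chosen after the values were seen. In PAF1-AID cells the 443 chromosome 4 genes with a mean above 5 CPM had a median log2 ratio of replicate 3 over replicate 4 of 0.50, 0.47 and 0.47 at 0, 2 and 6 h, and 84.0% of them were above 0 at all 3 times. In the 22 other chromosomes the medians lay between -0.14 and 0.0022, and the share above 0 at all times between 16.9% and 27.2%. In SPT6-AID cells the chromosome 4 medians of replicate 1 over 2 were -0.03, -0.02 and 0.01. Of the 3 genes described above that lie on chromosome 4, the PAF1-AID ratio of CPM was 1.78, 1.72 and 1.80 for POLR2B, 1.94, 1.73 and 1.71 for MED28, and 0.991, 1.13 and 1.06 for INTS12. In SPT6-AID cells TAF10 was 3.05, 3.19 and 4.19 times higher in replicate 1 than in replicate 2 at 0, 2 and 6 h. Ratios of 1.5 or more in 1 direction at all 3 times were found for INTS13 and TAF10 in SPT6-AID cells (2 of 91, against 5.44% of 11562 genes) and for MED28 and POLR2B in PAF1-AID cells (2 of 91, against 2.78%). The 11562 were the genes with a mean above 5 CPM, whereas the 91 were not limited in that way. The cause was not tested.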
